A study of Mus musculus with 4 samples.

Results

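The genes described here are 6 matrix metalloproteinases (Mmp8, Mmp9, Mmp12, Mmp14, Mmp19 and Mmp25), the related membrane protease Adam8, and the tissue inhibitors Timp1 and Timp2, 9 of the 32285 genes in the deposited matrices. They were chosen by symbol, and each symbol matched 1 row. Their RNA was counted in single leukocytes sorted by CD45.2 from digested mouse lungs, cells that the protocol calls circulating. One group is Plaur KO, mice without the urokinase receptor gene Plaur (Plaur-/-), and the other is WT, C57B6/J mice, which is also the strain given for the KO mice. Mice of both genotypes had been given LPS/OVA on day 0 and day 7 and OVA aerosol on day 14, so both libraries come from sensitized and challenged animals, and lungs of unchallenged mice are not analysed here. The design names 8 mice per genotype, and the animals' ages, the part of Plaur that was deleted and how many mice went into a library are not given in the sources used here. Each genotype has 1 RNA library. No test between genotypes was therefore possible, no difference below has a replicate check, and all intervals, given in square brackets, are 95% intervals that cover counting error only.

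Matrix metalloproteinases are zinc enzymes that cut collagen, elastin, gelatin and many soluble and surface proteins, and most are made as inactive precursors. Urokinase held by its receptor uPAR, the product of Plaur, turns plasminogen into plasmin, and plasmin can activate several of these precursors. Tissue inhibitors of metalloproteinases bind the active enzymes and block them. In the lung, neutrophils carry Mmp8 and Mmp9 protein in their granules, and macrophages secrete Mmp12, the macrophage elastase.

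The genes lie on different chromosomes apart from Mmp8 and Mmp12, which both belong to the metalloproteinase gene cluster of chromosome 9. In GRCm38.p6 coordinates from RefSeq, Mmp12 spans chr9:7344397-7360461 and Mmp8 spans chr9:7558429-7568486. Adam8 lies on chromosome 7, as does Plaur, with 115.5 Mb between them. RefSeq windows before the gene start were at hand for 7 of the 9 genes, Mmp9 and Mmp19 being named only. The 250 bases before the start were searched on both strands for the AP-1 letters TGANTCA, which 6.75% of 32851 such windows hold, and for the ETS core GAGGAA bound by PU.1, a factor of myeloid cells, which 23.3% hold. The windows shown are those of the genes that hold either, each 5′ to 3′ on the gene's own strand, with GAGGAA or its reverse complement TTCCTC, or the AP-1 letters, in capitals. Among the 9 genes, Mmp12 and Mmp8 have the largest differences in interstitial macrophages and neutrophils below, and Mmp12 has a pair of annotated starts. The windows are chr9:7558179-7558428 (plus strand) for Mmp8, chr9:7344147-7344396 and chr9:7347124-7347373 (plus strand) for the outer and the inner start of Mmp12, and chr17:23645270-23645519 (minus strand) for Mmp25.
Mmp8: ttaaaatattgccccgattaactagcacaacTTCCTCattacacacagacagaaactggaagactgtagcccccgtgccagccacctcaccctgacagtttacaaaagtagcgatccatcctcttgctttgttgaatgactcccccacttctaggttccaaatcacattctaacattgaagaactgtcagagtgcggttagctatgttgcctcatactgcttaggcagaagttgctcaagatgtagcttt
Mmp12 outer start: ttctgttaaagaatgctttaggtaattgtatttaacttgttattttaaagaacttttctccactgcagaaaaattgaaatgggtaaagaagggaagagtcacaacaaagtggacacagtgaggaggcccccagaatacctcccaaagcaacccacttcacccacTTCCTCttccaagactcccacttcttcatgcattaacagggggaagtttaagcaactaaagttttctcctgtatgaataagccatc
Mmp12 inner start: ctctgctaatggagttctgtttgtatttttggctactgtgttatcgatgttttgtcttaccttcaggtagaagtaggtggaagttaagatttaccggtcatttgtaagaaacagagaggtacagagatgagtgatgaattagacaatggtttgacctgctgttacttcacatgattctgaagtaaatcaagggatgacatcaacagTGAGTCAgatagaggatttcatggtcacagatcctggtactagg
Mmp25: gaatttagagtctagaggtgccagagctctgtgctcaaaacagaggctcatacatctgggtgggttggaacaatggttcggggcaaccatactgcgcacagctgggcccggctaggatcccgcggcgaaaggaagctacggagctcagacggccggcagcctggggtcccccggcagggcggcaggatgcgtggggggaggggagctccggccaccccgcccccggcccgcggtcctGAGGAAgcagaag
The ETS letters begin 219 bases before the start of Mmp8, 86 bases before the outer start of Mmp12 and 13 bases before the start of Mmp25. The AP-1 letters begin 44 bases before the inner start of Mmp12. Neither run of letters was found in the windows of Mmp14, Timp1 and Timp2, or in that of Adam8, which lies before an inner start. A match is a description of the letters only.

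The Plaur KO library held 10102 barcodes with 47442215 UMIs, of which 9584 cells were kept at a median of 2777.5 UMIs, and the WT library held 9024 barcodes with 42913843 UMIs, of which 8684 cells were kept at a median of 3209 UMIs. The libraries shared 16 barcode sequences. Cells fell into 27 clusters, of which 26 were given a class from marker genes, since no cell annotation by the authors was used. A class name here stands for cells that resemble that type by these markers. The 9 main classes are those with at least 150 cells in each library. They are neutrophils (3312 and 2273 cells, Plaur KO first), classical monocytes (859 and 253), interstitial macrophages (724 and 816), alveolar macrophages (609 and 1008), a joint class of cDC2 and CCR7 dendritic cells (455 and 395), cDC1 (246 and 186), T cells (1294 and 1516), NK cells (470 and 315) and B cells (1126 and 1494). Cluster 25, with 49 and 117 cells, stayed unnamed. Plaur RNA was counted in both libraries. In interstitial macrophages it was at 95.3 CPM (UMIs of the gene per 1000000 UMIs of the class) in the Plaur KO library and 435 CPM in the WT library, in neutrophils at 1254 and 2068 CPM, and in classical monocytes at 598 and 1178 CPM. It was higher in the Plaur KO library in T cells, at 292 CPM against 25.7 CPM in the WT library, and in NK cells (129 and 5.14 CPM), cDC1 (49.2 and 11.4 CPM) and B cells (308 and 203 CPM). A 3′ tag can lie outside the deleted part, so these levels check nothing about the labels, and every direction below rests on the labels.

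Members were compared between libraries where a class held at least 50 UMIs of the member over both libraries, which gave 48 member and class pairs. Of these, 9 were at least 1.5-fold higher in the Plaur KO library, 3 were at least 1.5-fold lower and 36 lay between. In interstitial macrophages 3 of 9 members were higher (Mmp12, Adam8 and Timp1) and 0 were lower, where 3.82% of 9432 genes were higher and 5.09% were lower. In alveolar macrophages 3 of 8 members were higher (Mmp8, Mmp9 and Adam8) and 0 were lower, against 2.75% and 2.59% of 9199 genes. Among classical monocytes 2 of 9 members were higher (Mmp19 and Timp1) and 1 was lower (Mmp12), against 6.37% and 8.47% of 9226 genes. Neutrophils had 1 of 5 members higher (Mmp8) and 0 lower, against 3.91% and 8.32% of 7312 genes. In the joint dendritic class 0 of 8 members were higher and 2 were lower (Mmp12 and Mmp19), against 4.87% and 4.14% of 8238 genes. T cells had 4 members with enough UMIs, of which 0 were past 1.5-fold, against 3.11% higher and 2.96% lower of 9389 genes. In cDC1 0 of 4 members were past that fold, against 3.54% higher and 4.15% lower of 6865 genes, and in NK cells 0 of 1, against 4.02% higher and 3.59% lower of 5821 genes. B cells had 0 members with 50 UMIs. The median log2 ratio (Plaur KO over WT) over the members was 0.28 in interstitial macrophages, 0.30 in alveolar macrophages, 0.22 in neutrophils, 0.11 in classical monocytes and -0.32 in the dendritic class, where the medians over all genes were -0.02, -0.01, -0.05, -0.03 and -0.00.

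**Figure D1:**
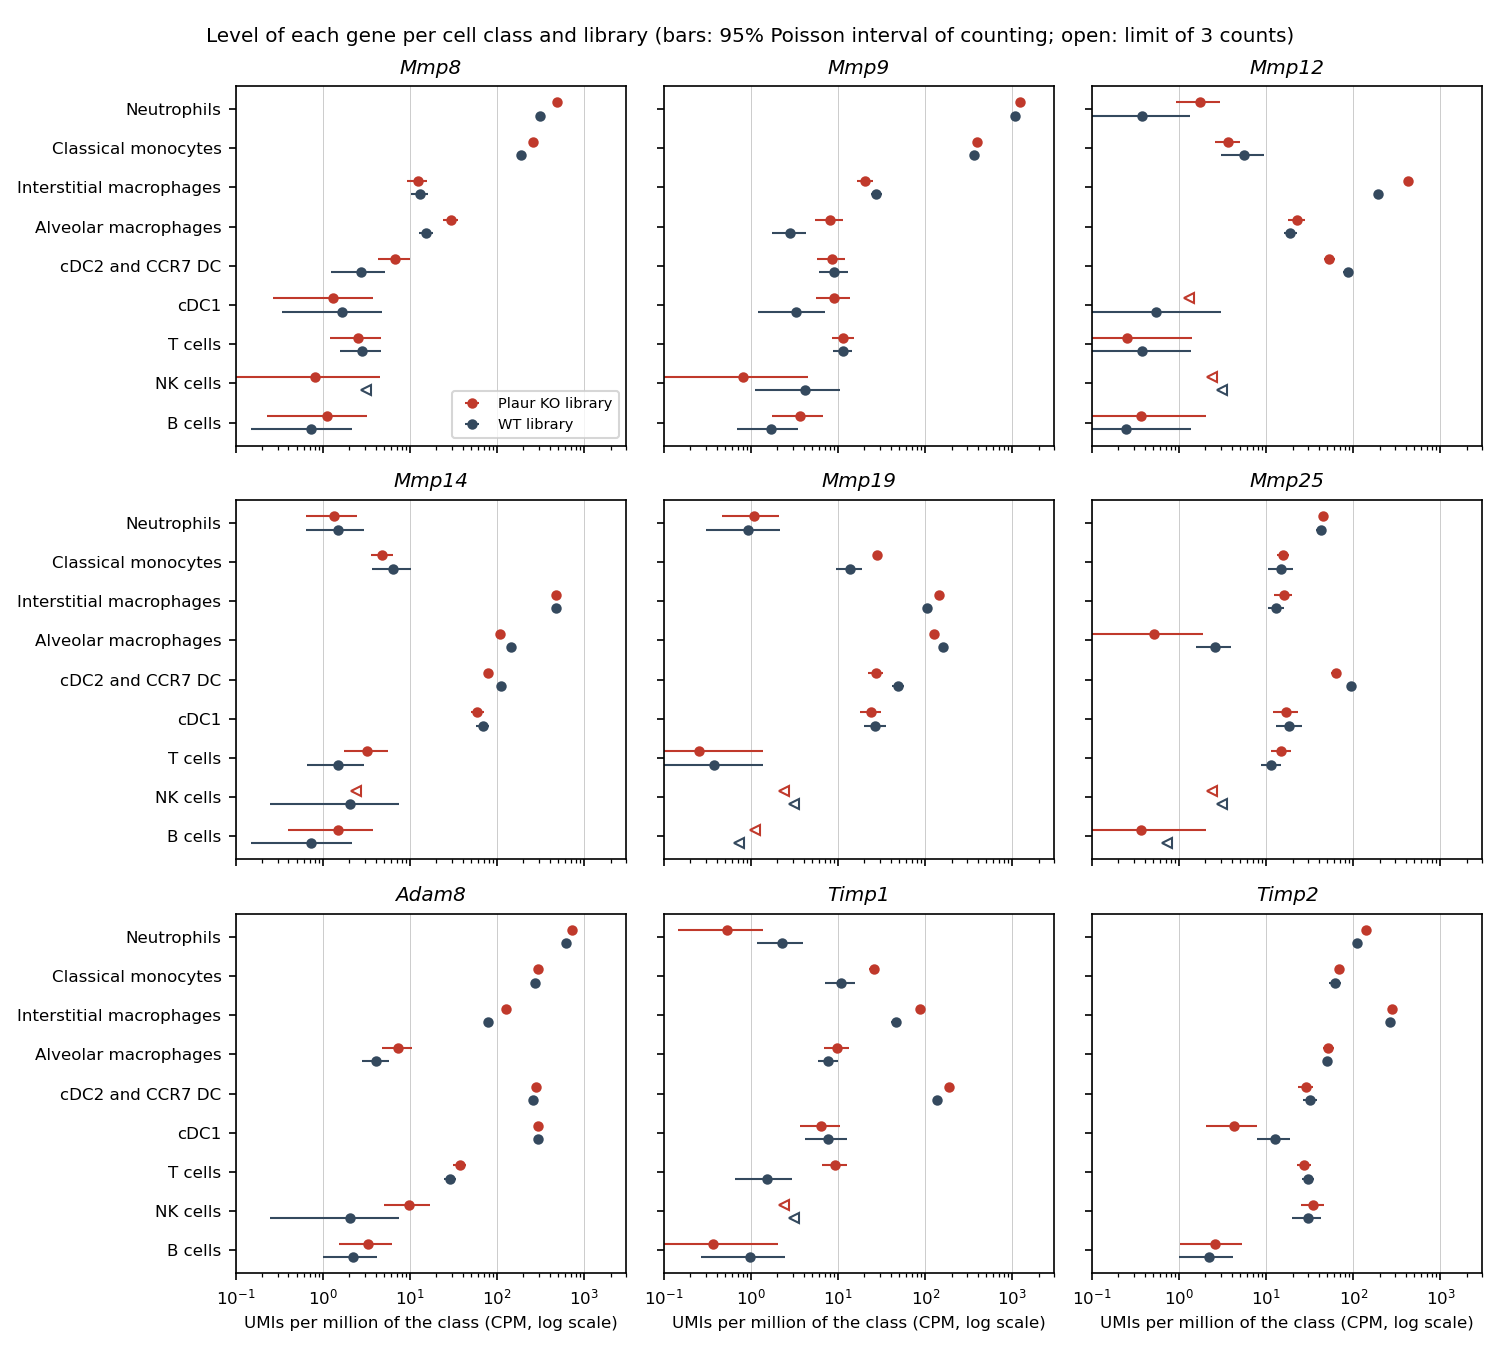
Level of each gene in CPM (log scale) in the 9 main classes, with the Plaur KO library (red) above the WT library (blue), bars for the 95% Poisson interval of counting, which end at the axis where they pass it, and open triangles for the limit that 3 counts allow where a class held 0 UMIs. Mmp8 and Mmp9 were highest in neutrophils, Mmp12, Mmp14 and Timp2 in interstitial macrophages, and Mmp25 and Timp1 in the dendritic class, in both libraries.

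**Figure D2:**
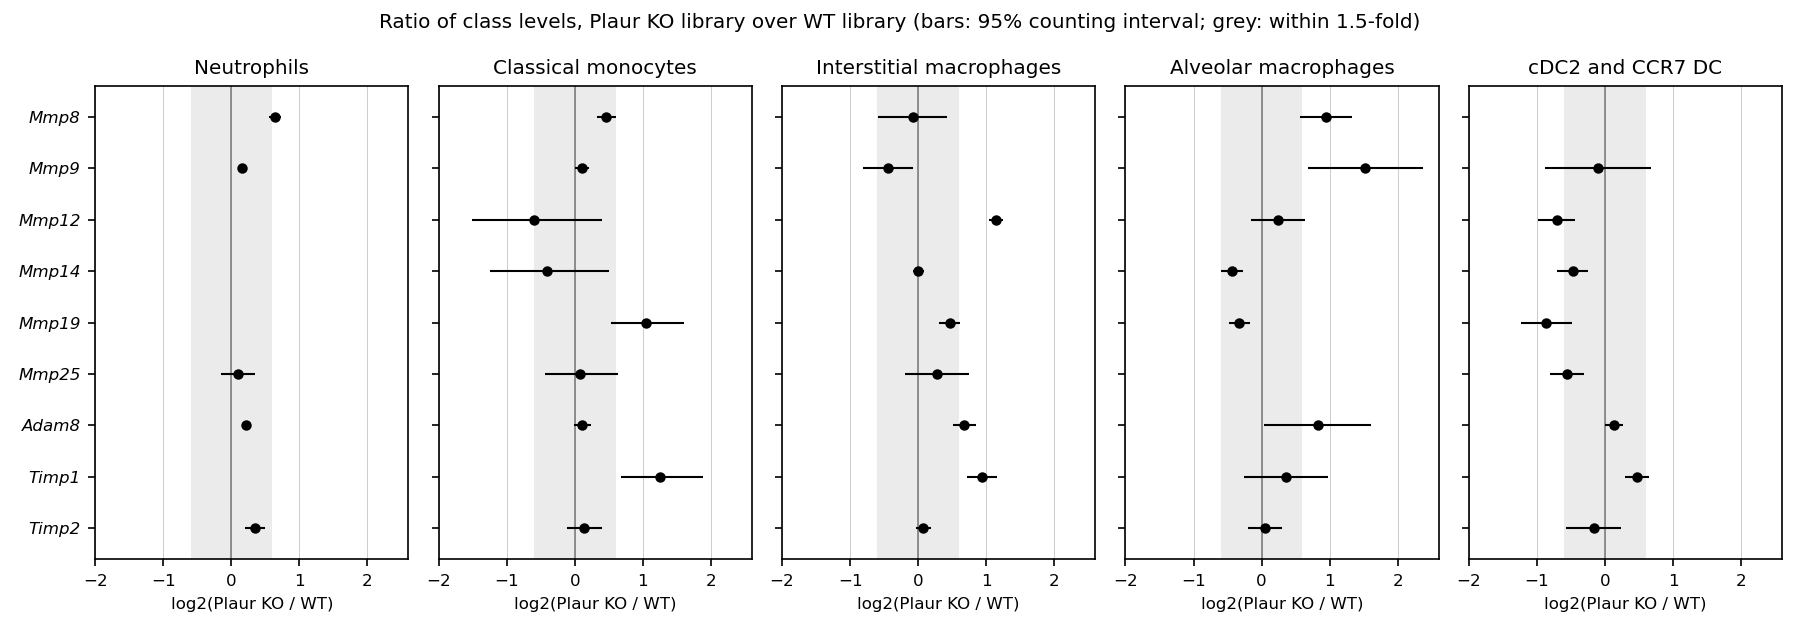
Log2 ratio of the class level, Plaur KO over WT, for members with at least 50 UMIs in 5 classes, with 95% counting intervals and a grey band for less than 1.5-fold. Mmp12 stood at 1.15 in interstitial macrophages and at -0.71 in the dendritic class, and Mmp14 at 0.00 in interstitial macrophages.

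B cells, which are not a known source of most of these enzymes, serve as a background for UMIs in cells that should lack them. At median depths of 2048.5 UMIs in the Plaur KO library and 2335.5 in the WT library, the share of B cells with a UMI was at most 0.622% and 0.602% for any of the 9 genes. Mmp19 had 0 UMIs in B cells of both libraries, and 3 counts would be 1.10 and 0.726 CPM. The shares given below for other classes are set beside this level, and mostly come with the shares after each cell was thinned to 1000 UMIs, a depth that 9294 and 8493 of the kept cells reached. RNA from other cells need not be equal in all classes, since the 10 neutrophil markers summed to 317 and 127 CPM in B cells and to 617 and 605 CPM in T cells.

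Mmp8, the neutrophil collagenase, was at 483 CPM in neutrophils of the Plaur KO library and 310.0 CPM in those of the WT library, from 3614 and 1666 UMIs. The log2 ratio was 0.64 [0.55 to 0.72]. A Mmp8 UMI was found in 46.0% of neutrophils of the Plaur KO library and 38.1% of those of the WT library, or 30.8% and 23.0% after thinning. The class level was thus higher in the Plaur KO library by more than counting error, and the clusters of neutrophils shared it unevenly. Cluster 1, led by Il1f9 and Cass4, had 455 and 297 CPM (log2 ratio 0.62). Cluster 0, led by Retnlg, the cluster with the highest level, had 847 and 733 CPM (log2 ratio 0.21) and held 856 cells of the Plaur KO library and 229 of the WT library. In cluster 3, led by F3, the level was 264 and 241 CPM, and in cluster 5, led by Slc40a1, 284 and 263 CPM, and both intervals of the log2 ratio included 0. Cluster 17, led by interferon-induced genes such as Ifit3, held 118 and 8 cells. The log2 ratio of neutrophils was 0.37 when the clusters had equal weight and 0.56 with thinned cells, both below 1.5-fold.

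Alveolar macrophages, which patrol the air side of the lung, held 113 Mmp8 UMIs in the Plaur KO library and 119 in the WT library, at 29.1 and 15.1 CPM (log2 ratio 0.95 [0.56 to 1.33]). Among them, 11.0% and 8.93% had a UMI, or 2.36% and 1.29% after thinning. Interstitial macrophages were at 12.2 and 12.9 CPM (log2 ratio -0.08 [-0.59 to 0.42]), but at a log2 ratio of 1.77 with thinned cells. There 1.55% of 709 cells and 0.496% of 806 cells had a UMI, so that ratio rests on few UMIs. Mmp8 was thus low in both kinds of macrophage, and its difference between libraries held under every alternative run in the alveolar kind only.

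Mmp9, the larger of the gelatinases, was the member with most UMIs in neutrophils, at 1208 CPM in the Plaur KO library and 1081 CPM in the WT library, from 9050 and 5808 UMIs. The log2 ratio was 0.16 [0.11 to 0.21], and 78.7% and 79.3% of neutrophils had a UMI, or 63.6% and 60.7% after thinning. The clusters of neutrophils had log2 ratios of 0.06 (cluster 0), 0.14 (cluster 1), -0.16 (cluster 3) and -0.05 (cluster 5). Mmp9 therefore lay closer between the libraries than Mmp8 in cluster 1, and below 1.5-fold in all 4 of these clusters. Per 100 Mmp9 UMIs, neutrophils held 39.9 Mmp8 UMIs in the Plaur KO library and 28.7 in the WT library. Of thinned neutrophils with a Mmp8 UMI, 71.7% in the Plaur KO library and 68.5% in the WT library also had a Mmp9 UMI, against 60.0% and 58.4% of those without one.

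Alveolar macrophages held 31 Mmp9 UMIs in the Plaur KO library and 22 in the WT library, at 8.00 and 2.80 CPM (log2 ratio 1.52 [0.68 to 2.37]). Interstitial macrophages were at 20.3 and 27.5 CPM (log2 ratio -0.44 [-0.81 to -0.08], and -0.75 when the 5 highest cells per library were left out), T cells at 11.4 and 11.3 CPM (log2 ratio 0.02), and the dendritic class at 8.38 and 8.97 CPM (log2 ratio -0.10 [-0.88 to 0.68]). The dendritic value was between -1.19 and -1.53 in 5 alternatives, so it has no settled size. Neutrophil RNA moved with the alveolar value. The summed level of the 10 neutrophil markers in alveolar macrophages was 1019.5 CPM in the Plaur KO library and 413 CPM in the WT library, with 0 markers at 0 in either, and its part in the result was not tested. Beside 1000 UMIs of S100a8, a neutrophil calcium-binding protein, alveolar macrophages held 20.1 and 16.7 Mmp9 UMIs, and neutrophils 28.0 and 31.3. For Mmp8 alveolar macrophages held 73.1 and 90.3 UMIs per 1000 S100a8 UMIs, and neutrophils 11.2 and 8.99, so the Mmp8 of alveolar macrophages lay above the neutrophil ratio and their Mmp9 did not.

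The monocytes bear on Mmp8 and Mmp9 in the same way. Classical monocytes, which enter inflamed tissue from the blood, were at 258 CPM of Mmp8 in the Plaur KO library and 187 CPM in the WT library (log2 ratio 0.47 [0.32 to 0.61], and 0.60 with thinned cells) and at 391 and 363 CPM of Mmp9 (log2 ratio 0.11 [0.00 to 0.21]). Their cells were in 2 clusters with unlike neutrophil RNA. Cluster 16, with 685 cells of the Plaur KO library and 195 of the WT library and a median of 10500.0 and 9183 UMIs, had a summed neutrophil marker level of 53412 and 43475 CPM. Cluster 13, with 174 and 58 cells and the same number of monocyte markers (8 of 9), had 694 and 303 CPM. Mmp9 followed this split, at 432 and 410 CPM in cluster 16 (log2 ratio 0.08) and at 5 and 0 UMIs in cluster 13. Mmp8 was at 275 and 197 CPM in cluster 16 (log2 ratio 0.48 [0.34 to 0.63]) and at 106 and 114 CPM in cluster 13 (log2 ratio -0.10 [-0.67 to 0.51]). Per 1000 S100a8 UMIs, cluster 16 held 23.5 Mmp9 UMIs in the Plaur KO library and 27.6 in the WT library, 14.9 and 13.2 Mmp8 UMIs, and 17.2 and 20.2 Adam8 UMIs. Neutrophils held 28.0 and 31.3, 11.2 and 8.99, and 16.8 and 18.1, in that order. Beside S100a8, cluster 16 thus held less Mmp9 and more Mmp8 than neutrophils in both libraries. Retnlg, a neutrophil gene, was at 225 and 116 UMIs per 1000 S100a8 UMIs in cluster 16 and at 237 and 139.8 in neutrophils. The counting intervals of the cluster and the neutrophils did not overlap in either library, [223 to 227] and [235 to 239] in the Plaur KO library and [113 to 120.2] and [138 to 142] in the WT library. Such intervals leave out the spread between neutrophil clusters. Neutrophil clusters 0, 1, 3 and 5 lay at 294, 219, 149.5 and 189 in the Plaur KO library. In the WT library they lay at 203, 134, 119 and 133. Scrublet had marked 44 barcodes of the Plaur KO library and 1 of the WT library among classical monocytes, and these were left out. Whether cells of cluster 16 are doublets that were not marked was not tested, and this cluster held nearly all Mmp8, Mmp9 and Adam8 UMIs of the class.

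**Figure D3:**
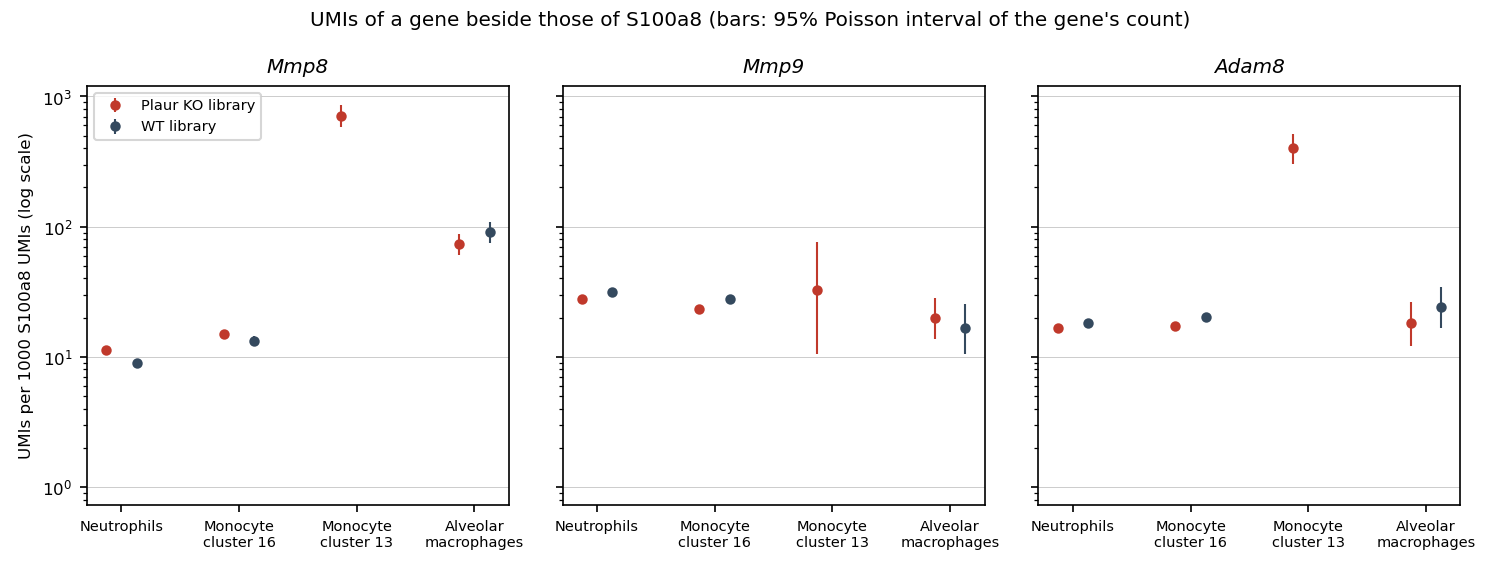
UMIs of Mmp8, Mmp9 and Adam8 per 1000 S100a8 UMIs (log scale) in neutrophils, the 2 classical monocyte clusters and alveolar macrophages, Plaur KO left of WT, with 95% Poisson intervals of the gene's count. Cluster 13 of the WT library held 9 S100a8 UMIs and is not drawn. Monocyte cluster 16 lies somewhat above the neutrophils for Mmp8, somewhat below them for Mmp9 and near them for Adam8, in both libraries. Mmp8 of alveolar macrophages lies further above them, at 73.1 and 90.3.

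Counted over all kept cells, Mmp8 was at 154 CPM in the Plaur KO library and 59.7 CPM in the WT library (log2 ratio 1.36), and Mmp9 at 311 and 177 CPM (log2 ratio 0.81), ratios above those of neutrophils or monocytes. Classical monocytes made up 8.96% of the kept cells of the Plaur KO library and 2.91% of those of the WT library, and neutrophils 34.6% and 26.2%. Of all Mmp8 UMIs, 53.4% of the Plaur KO library and 68.1% of the WT library lay in neutrophils, and 40.6% and 19.3% in classical monocytes. The sort and the digestion can set such shares, and their part was not tested.

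Mmp12, the macrophage elastase, showed the largest difference of a member with over 1000 UMIs of a class in each library. Interstitial macrophages, which sit in the lung tissue around airways and vessels, held 1978 UMIs in the Plaur KO library and 1275 in the WT library, at 422 and 191 CPM. The log2 ratio was 1.15 [1.04 to 1.25], and 28.7% and 22.2% of the cells had a UMI, or 18.2% and 8.19% after thinning. Both clusters of the class showed it. In cluster 4, led by Gpnmb and Trem2, genes of lipid-handling macrophages, the level was 553 CPM in the Plaur KO library and 227 CPM in the WT library (log2 ratio 1.29 [1.17 to 1.41]). In cluster 12, led by Ccl8 and the complement genes C1qa, C1qb and C1qc, it was 289 and 94.5 CPM (log2 ratio 1.61 [1.37 to 1.86]). Over the 11 alternative settings the log2 ratio of the class ran between 1.102 and 1.505.

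Mmp12 RNA was crowded into few cells. Of the interstitial macrophages, 27 of 724 in the Plaur KO library and 17 of 816 in the WT library had at least 20 UMIs, and these cells carried 49.1% and 39.9% of the Mmp12 UMIs. The highest single cell had 124 UMIs in the Plaur KO library and 55 in the WT library. Cells with a UMI averaged 9.5 and 7.0 UMIs. So both the share of positive cells and the UMIs per positive cell were higher in the Plaur KO library, and the counting interval, which takes UMIs as independent, is too narrow for such a gene. Without the 5 cells per library with most Mmp12 UMIs the level stayed at least 1.5-fold higher in the Plaur KO library.

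**Figure D4:**
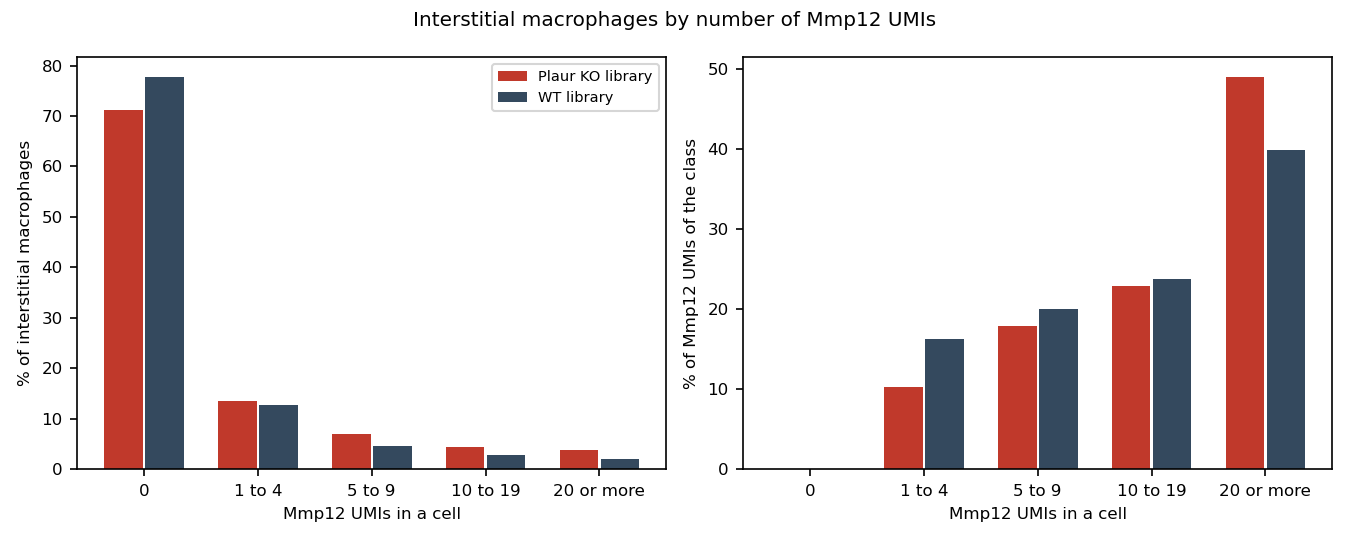
Interstitial macrophages grouped by their number of Mmp12 UMIs, as the share of cells (left) and as the share of the class's Mmp12 UMIs (right), Plaur KO left of WT. Cells with at least 20 UMIs were 27 of 724 in the Plaur KO library and 17 of 816 in the WT library.

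In the dendritic class Mmp12 went the other way. It was at 53.0 CPM in the Plaur KO library and 86.7 CPM in the WT library, from 190 and 290 UMIs (log2 ratio -0.71 [-0.98 to -0.44]), and 5.27% and 10.1% of the cells had a UMI. Here 5 cells held 57.4% of the UMIs in the Plaur KO library and 43.4% in the WT library. The 12 interstitial macrophage markers summed to 314 and 450 CPM in this class, and their part in the result was not tested. Mmp12 in alveolar macrophages was at 22.4 and 18.9 CPM (log2 ratio 0.24 [-0.15 to 0.64]). Classical monocytes had 39 and 14 UMIs, at 3.66 and 5.55 CPM (log2 ratio -0.60 [-1.51 to 0.40]), and in the Plaur KO library 76.9% of these UMIs came from 5 cells. Without the 5 cells per library the monocyte ratio was 2.06, so it has no stable direction. Cluster 25, unnamed, held 7 Mmp12 UMIs in 49 cells of the Plaur KO library and 87 in 117 cells of the WT library, at 16.03 and 228 CPM, and its median depth was 7051 and 1334 UMIs. Neutrophils held 13 and 2 UMIs, plasmacytoid dendritic cells 8 and 0, and NK cells 0 and 0, where 3 counts would be 2.40 and 3.08 CPM.

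Mmp14, a membrane-anchored protease known to activate the Mmp2 precursor, was the member that lay closest between the libraries in interstitial macrophages. Its level was 467 CPM in both, from 2189 UMIs in the Plaur KO library and 3123 in the WT library (log2 ratio 0.00 [-0.08 to 0.08]). The 2 clusters gave 487 and 475 CPM (cluster 4) and 447 and 444 CPM (cluster 12). A UMI was found in 78.0% and 85.7% of these cells, at medians of 5871.5 and 7722 UMIs per cell, or in 33.6% and 38.2% after thinning. The thinned log2 ratio of the class was -0.15, outside the counting interval. In the other classes with enough UMIs the Plaur KO library held less. Alveolar macrophages were at 107 and 145 CPM (log2 ratio -0.44 [-0.60 to -0.27]), the dendritic class at 79.0 and 110.0 CPM (-0.48 [-0.71 to -0.25]), cDC1 at 59.1 and 68.4 CPM (-0.21 [-0.57 to 0.15]), and classical monocytes at 4.79 and 6.34 CPM (-0.40 [-1.24 to 0.51]). None of these passed 1.5-fold. Without the 5 monocytes per library with most Mmp14 UMIs, the monocyte ratio was 0.91, and with cluster 25 counted among monocytes it was -1.95. Over all kept cells Mmp14 was at 72.0 CPM in the Plaur KO library and 119.6 CPM in the WT library (log2 ratio -0.73). Interstitial and alveolar macrophages, which held most of its UMIs, were 7.55% and 6.35% of the kept cells of the Plaur KO library, against 9.40% and 11.6% of those of the WT library.

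**Figure D5:**
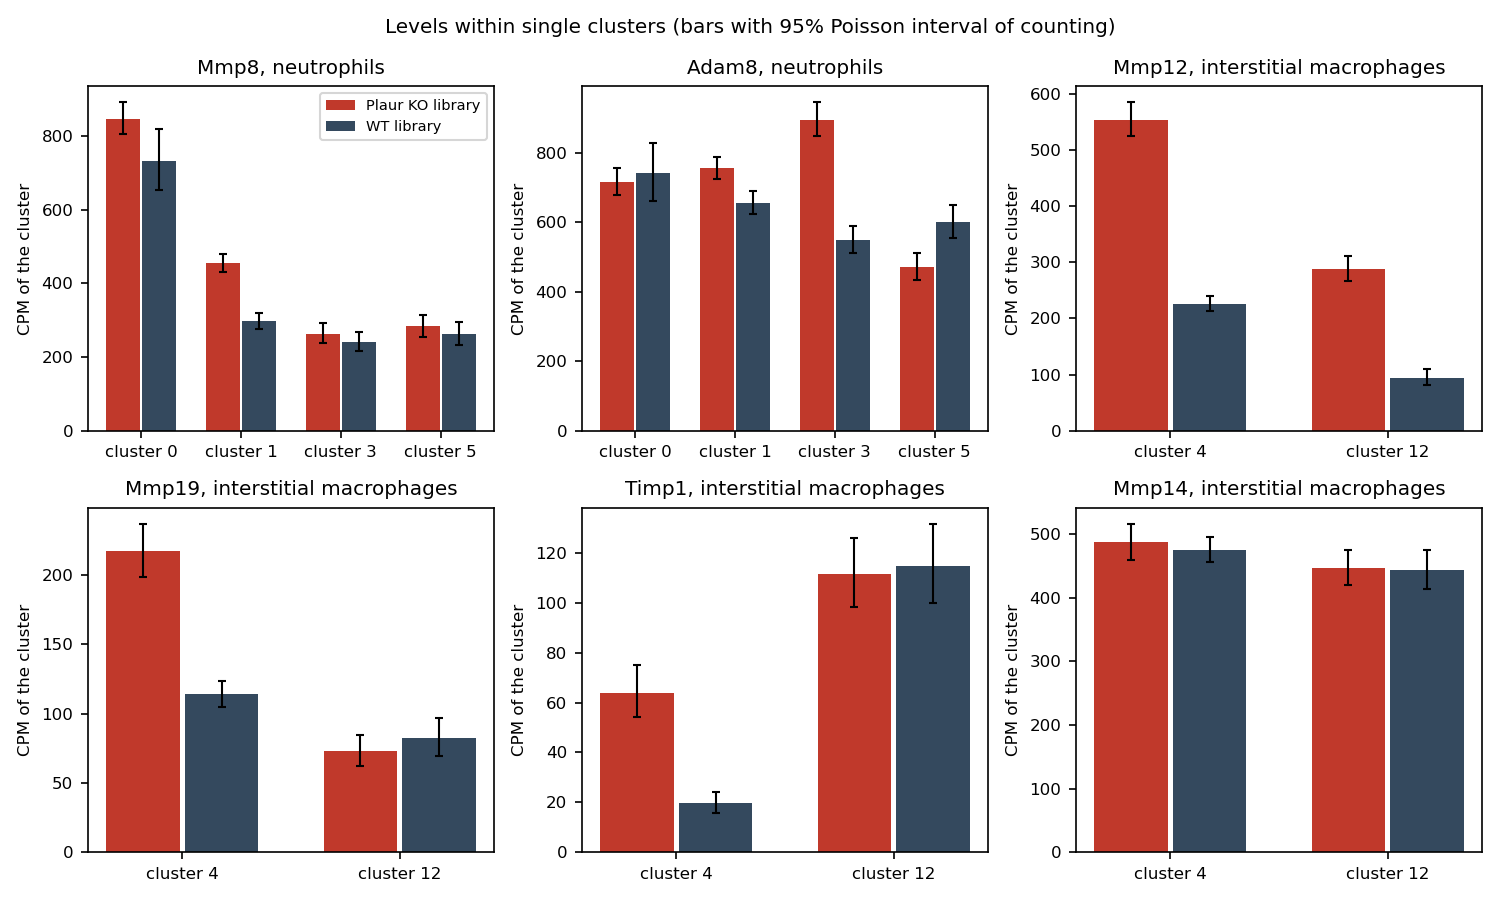
Level in CPM of Mmp8 and Adam8 in the 4 large neutrophil clusters and of Mmp12, Mmp19, Timp1 and Mmp14 in the 2 interstitial macrophage clusters, Plaur KO left of WT, with 95% Poisson intervals of counting. Mmp12 was higher in the Plaur KO library in both macrophage clusters, Mmp19 and Timp1 in cluster 4 alone among these, and Mmp14 lay within its intervals in both.

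Mmp19, a secreted protease of macrophages and other cells, was spread over both kinds of macrophage. Interstitial macrophages were at 145 CPM in the Plaur KO library and 105 CPM in the WT library, from 682 and 704 UMIs (log2 ratio 0.47 [0.31 to 0.62]). The clusters differed. Cluster 4 had 217 and 114 CPM (log2 ratio 0.93 [0.75 to 1.11]), and cluster 12 had 73.0 and 82.4 CPM (log2 ratio -0.17 [-0.50 to 0.15]). After thinning, 8.60% and 8.93% of the interstitial macrophages had a Mmp19 UMI, and the thinned log2 ratio of the class was 0.04. Alveolar macrophages were at 126 and 158 CPM (log2 ratio -0.33 [-0.48 to -0.18]), with a UMI in 44.5% and 53.4% of cells. They were the highest class in the WT library. In the Plaur KO library the intervals of the interstitial and alveolar levels overlapped.

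In classical monocytes Mmp19 was higher in the Plaur KO library, at 27.9 CPM against 13.5 CPM in the WT library, from 297 and 34 UMIs (log2 ratio 1.05 [0.54 to 1.61]). A UMI was found in 21.0% and 9.88% of monocytes, or 3.83% and 1.20% after thinning, which were 32 and 3 cells. Cluster 13 had 49.7 and 24.1 CPM (log2 ratio 1.04 [-0.10 to 2.43]) and cluster 16 had 25.6 and 12.1 CPM (log2 ratio 1.08 [0.50 to 1.71]). Neutrophils held 8 and 5 Mmp19 UMIs in all, or 1.07 and 0.930 CPM. With the 49 and 117 cells of cluster 25 counted as monocytes, the log2 ratio was 0.00. The dendritic class went the other way, at 26.8 CPM in the Plaur KO library and 48.7 CPM in the WT library (log2 ratio -0.86 [-1.24 to -0.49]). There 5 cells held 53.1% of the UMIs in the Plaur KO library and 55.2% in the WT library. In cDC1 the levels were 23.5 and 26.6 CPM (log2 ratio -0.18 [-0.76 to 0.41]).

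Mmp25, a membrane-anchored protease known as leukolysin, had its highest class level in the dendritic class and its next highest in neutrophils, in both libraries. With doublet calls kept, the highest was instead a class named ILC2 (group 2 innate lymphoid cells), at 82.7 and 96.3 CPM. That class then held 143 and 144 barcodes, against 76 and 58 cells in the main setting. The dendritic class was at 63.9 CPM in the Plaur KO library and 93.8 CPM in the WT library, from 229 and 314 UMIs (log2 ratio -0.55 [-0.81 to -0.30]), and 25.3% and 30.1% of the cells had a UMI. When only cells with at least 500 genes were clustered, the CCR7 dendritic cells, a migratory state, formed a cluster of 77 and 78 cells. There Mmp25 was at 257 and 316 CPM (log2 ratio -0.30 [-0.62 to 0.02]), with a UMI in 62.3% and 75.6% of cells. The larger of the cDC2 clusters of that setting, with 391 and 409 cells, was at 30.8 and 39.2 CPM. The CCR7 cells thus held most of the Mmp25 UMIs of these cells, 131 and 207, beside 96 and 115 in the larger cDC2 cluster. In the CCR7 cells Mmp14 was at 7 and 52 UMIs (log2 ratio -2.53 [-3.91 to -1.39]), Mmp12 at 0 and 23 UMIs and Timp1 at 2 and 4 UMIs. Timp2 was there at 2 and 32 UMIs (log2 ratio -3.64 [-6.74 to -1.67]) and Mmp19 at 4 and 19 UMIs (-1.89 [-3.90 to -0.30]). Few cells gave these UMIs. Of the 78 CCR7 cells of the WT library, 11.5% had a Timp2 UMI and 11.5% a Mmp19 UMI. The WT share was 5.13% for Mmp12 and 26.9% for Mmp14. The counting intervals take UMIs as independent, so they are too narrow for UMIs held by so few cells. Neutrophils were at 45.0 and 42.2 CPM (log2 ratio 0.09 [-0.16 to 0.34]). The log2 ratio was 0.38 in T cells (14.9 and 11.5 CPM), 0.28 in interstitial macrophages (15.8 and 13.01 CPM), 0.08 in classical monocytes (15.5 and 14.7 CPM) and -0.14 in cDC1 (16.7 and 18.4 CPM), and each of these 4 intervals included 0. With doublet calls kept the T cell ratio was 0.91. Alveolar macrophages held 2 and 20 UMIs, of which 5 cells gave 70.0% in the WT library.

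Adam8, a membrane protease of myeloid cells that sheds surface proteins, reached 50 UMIs in 7 of the 9 main classes, as did Timp2. Neutrophils were highest, at 723 CPM in the Plaur KO library and 623 CPM in the WT library, from 5415 and 3347 UMIs (log2 ratio 0.22 [0.15 to 0.28]). A UMI was found in 65.4% and 60.8% of neutrophils, or 46.6% and 41.9% after thinning. The clusters of neutrophils did not share 1 direction. Cluster 3 had 895 and 549 CPM (log2 ratio 0.71 [0.58 to 0.83]), cluster 1 had 756 and 656 CPM (0.21), cluster 0 had 716 and 742 CPM (-0.05 [-0.23 to 0.13]), and cluster 5 had 471 and 601 CPM (-0.35 [-0.52 to -0.19]).

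Among macrophages Adam8 was higher in the Plaur KO library. Interstitial macrophages were at 126 CPM in the Plaur KO library and 78.6 CPM in the WT library, from 590 and 526 UMIs (log2 ratio 0.68 [0.51 to 0.85]). Cluster 12 had 149 and 76.9 CPM (log2 ratio 0.96) and cluster 4 had 103 and 79.3 CPM (0.37). The neutrophil markers summed to 1674 CPM in the Plaur KO library and 2351 CPM in the WT library in the class as a whole. In cluster 12, where Adam8 differed more, the sum was higher in the Plaur KO library too, at 1359 and 722 CPM. Cluster 4 had sums of 1985 and 2960 CPM. The part of neutrophil RNA in the Adam8 result was not tested. Alveolar macrophages had 28 and 32 Adam8 UMIs, at 7.22 and 4.07 CPM (log2 ratio 0.83 [0.04 to 1.61]). Per 1000 S100a8 UMIs they held 18.1 and 24.3 Adam8 UMIs, near the 16.8 and 18.1 of neutrophils, and with thinned cells the log2 ratio was -0.09. Of the other classes, classical monocytes were at 291 and 270.0 CPM (log2 ratio 0.11 [-0.01 to 0.23]), cDC1 at 296 and 297 CPM (-0.01), the dendritic class at 280.3 and 256 CPM (0.13) and T cells at 37.1 and 28.7 CPM (0.37 [0.03 to 0.70], and 0.68 with doublet calls kept). The intervals of cDC1, monocytes and the dendritic class overlapped, so these 3 levels were not told apart in either library. Within the monocytes Adam8 was at 316 and 301 CPM in cluster 16, which carries the neutrophil RNA given above, and at 59.4 and 34.5 CPM in cluster 13.

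Timp1, an inhibitor that binds Mmp9 among others, was nearly absent from neutrophils, at 4 UMIs in the Plaur KO library and 12 in the WT library. Its highest main class was the dendritic one, at 189.6 and 137 CPM from 679 and 457 UMIs (log2 ratio 0.47 [0.30 to 0.65]), with a UMI in 33.8% and 27.8% of cells. Interstitial macrophages were at 87.5 CPM in the Plaur KO library and 45.6 CPM in the WT library, from 410 and 305 UMIs (log2 ratio 0.94 [0.72 to 1.16]). The difference lay in cluster 4, at 64.0 and 19.7 CPM (log2 ratio 1.70 [1.32 to 2.08]). Cluster 12 had 111 and 115 CPM (log2 ratio -0.05 [-0.31 to 0.22]) and held 419 cells of the Plaur KO library and 285 of the WT library. With equal weight for both clusters it was 0.38. Timp1 was crowded as well, with 36.3% and 39.0% of the UMIs in 5 cells. Fibroblast markers are given beside it because fibroblasts, 16 cells in each library, had the highest Timp1 level of all classes, at 2230 and 2258 CPM. In interstitial macrophages the 7 fibroblast markers summed to 8.75 CPM in the Plaur KO library, with 1 marker at 0, and 4.34 CPM in the WT library, with 0 at 0.

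Classical monocytes had 272 Timp1 UMIs in the Plaur KO library and 27 in the WT library, at 25.6 and 10.7 CPM (log2 ratio 1.26 [0.68 to 1.88]). A UMI was found in 7.57% and 3.16% of cells, or in 1.56% of 835 and 0.800% of 250 cells after thinning. In the WT library 5 cells gave 88.9% of the UMIs, and the highest gave 14. Both clusters had a log2 ratio of 1.26, which was [-0.22 to 3.22] in cluster 13 and [0.64 to 1.95] in cluster 16. Over the alternatives the ratio of the class ran between 0.78 and 3.65, the higher value without the 5 cells per library with most UMIs. Alveolar macrophages were at 9.80 and 7.63 CPM (log2 ratio 0.36 [-0.26 to 0.97], and 1.01 with the members among the variable genes). T cells held 37 and 8 UMIs, and in the Plaur KO library 5 cells gave 94.6% of them. Timp1 lies on the X chromosome, and Xist, which marks cells with an inactive X, was at 2 UMIs in the Plaur KO library and 1 in the WT library.

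Timp2, an inhibitor that also takes part in the activation of Mmp2 by Mmp14, differed less than Timp1 in each main class where both reached 50 UMIs. In the CCR7 cells described above Timp2 was at 2 UMIs in the Plaur KO library and 32 in the WT library. Only 11.5% of these WT cells had a Timp2 UMI. Interstitial macrophages were the highest main class for Timp2, at 281 CPM in the Plaur KO library and 266 CPM in the WT library. This came from 1318 and 1782 UMIs (log2 ratio 0.08 [-0.03 to 0.18]), and 61.3% and 65.6% of the cells had a UMI. Neutrophils were next, at 140.5 and 110.3 CPM (log2 ratio 0.35 [0.20 to 0.50]), with a UMI in 24.2% and 19.97% of cells. Cluster 0 had the highest level among neutrophils, at 228 and 172 CPM (log2 ratio 0.41), and cluster 1 had 133 and 109 CPM (0.29). The intervals of clusters 3 and 5 included 0. Classical monocytes were at 68.1 and 61.8 CPM, alveolar macrophages at 51.6 and 49.7 CPM, the dendritic class at 28.5 and 32.0 CPM, T cells at 27.1 and 30.2 CPM, and NK cells at 34.4 and 29.8 CPM. Each of these 5 intervals of the log2 ratio included 0. Fibroblasts had 947 and 1226 CPM of Timp2, from 118 and 127 UMIs.

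Across the 13 named classes of both libraries that were used for this, which gave 26 points, the levels on the log2(CPM + 1) scale fell into related patterns. The points of a class share their library, depth and clustering, so the correlations are a description. Mmp8 and Mmp9 followed each other (Pearson r = 0.90), as did Mmp14 and Mmp19 (0.87), Mmp25 and Adam8 (0.86) and Mmp12 and Mmp14 (0.82), while Mmp9 and Mmp14 did not (-0.08). Timp1 was closer to Mmp12 (0.76) than to Timp2 (0.47). Fibroblasts, the class with the highest level of both inhibitors, had 16 cells in each library and are not among these points. Of 11235 genes with at least 200 UMIs, those most like each member were Clec4d, Lcn2 and Acod1 for Mmp8 (r of 0.94 each), H2-Q10 (0.99), S100a8 and S100a9 for Mmp9, and Plau, the gene of urokinase itself (0.94), C1qc and Gpnmb for Mmp12. For Mmp14 they were Procr (0.94), Cxcl16 and Anpep, for Mmp19 Snx24 (0.95), Dab2 and Sh3pxd2b, and for Mmp25 Adam8 (0.86), Pgs1 and Rbpj. For Adam8 they were 6430531B16Rik (0.93), Cpne2 and Flot1, for Timp1 Sphk1 (0.89), Flrt3 and Ccl24, and for Timp2 Usp2 (0.86), Rab11fip5 and Ptgs1.

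The rest of the protease system was taken from 7 lists in neutrophils, alveolar macrophages, interstitial macrophages and classical monocytes. The counts below stand beside the shares of all genes past 1.5-fold in each class. These were 3.91% higher and 8.32% lower in neutrophils and 2.75% and 2.59% in alveolar macrophages. In interstitial macrophages they were 3.82% and 5.09%, and in classical monocytes 6.37% and 8.47%. Of 15 other matrix metalloproteinases, Mmp13, a collagenase, alone reached 50 UMIs in any of these classes. Interstitial macrophages held it at 91.9 CPM in the Plaur KO library and 45.4 CPM in the WT library (log2 ratio 1.02 [0.80 to 1.23]), beside the 1.15 of Mmp12. None of the 4 other inhibitors (Timp3, Timp4, Reck and A2m) reached 50 UMIs there. Of 12 other adamalysins, 6 were measured in neutrophils, where Adam19, a membrane sheddase, was higher at 159.7 and 106 CPM (log2 ratio 0.59) and Adam9 lower at 6.81 and 10.2 CPM (-0.59 [-1.17 to -0.01]). In the other 3 classes 5 or 6 adamalysins were measured and 0 passed 1.5-fold. The median log2 ratio of the list was -0.12 in neutrophils, -0.05 in alveolar macrophages, 0.14 in interstitial macrophages and -0.00 in classical monocytes.

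Of the 13 genes of the plasminogen system, 6 or 7 were measured per class. Plaur itself was lower in these 4 classes, though not in all main classes, as given above. The medians of the list were -0.32 in neutrophils, -0.03 in alveolar macrophages, -0.15 in interstitial macrophages and -0.09 in classical monocytes. S100a10, which binds plasminogen at the cell surface, was higher in classical monocytes at 642 CPM in the Plaur KO library and 355 CPM in the WT library (log2 ratio 0.85) and lower in neutrophils at 12.95 and 21.6 CPM (-0.74). Of 6 neutrophil serine proteases and inhibitors, Prtn3, proteinase 3, was higher in classical monocytes at 27.5 and 6.34 CPM (2.12 [1.39 to 2.94]), as was the protease inhibitor Serpinb1a at 27.4 and 16.3 CPM (0.76), 2 of 3 measured. The other 3 classes had 0 of 2 past 1.5-fold, and the medians were 0.76 in classical monocytes, -0.01 in neutrophils, 0.26 in alveolar macrophages and -0.31 in interstitial macrophages.

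Among 7 partners and regulators, Tgfb1, a growth factor that metalloproteinases can release from its latent form, was lower in neutrophils at 116 CPM in the Plaur KO library and 215 CPM in the WT library (log2 ratio -0.89). Lcn2, a protein of neutrophil granules, was lower in interstitial macrophages at 12.6 and 27.4 CPM (-1.12). Cd63, a surface partner of Timp1, was lower in classical monocytes at 43.5 and 90.4 CPM (-1.05). Alveolar macrophages had 0 of 7 past 1.5-fold. The medians of this list were -0.33 in neutrophils, -0.02 in alveolar macrophages, -0.19 in interstitial macrophages and -0.34 in classical monocytes. Of 9 genes of neutrophil granules and their neighbours, 8 were measured in neutrophils, with 0 higher and 1 lower, the antimicrobial Camp at 15.8 and 32.0 CPM (-1.02). Classical monocytes had 5 of 9 higher and 0 lower, against 6.37% and 8.47% of all genes. Their summed neutrophil markers were at 48325 and 38508.5 CPM, whose part in this was not tested. There Camp was at 258 UMIs in the Plaur KO library (24.2 CPM) and 0 in the WT library, where 3 counts are 1.19 CPM, and Ngp at 207 and 2 UMIs (4.62 [2.75 to 7.67]). Arg1 was at 92 and 2 UMIs (3.45 [1.55 to 6.51]), Ltf at 60 and 8 UMIs (0.83 [-0.24 to 2.11]) and Chil3 at 529 and 336 CPM (0.66). In interstitial macrophages Arg1 was at 142 and 29.7 CPM (2.26 [2.03 to 2.50]) and Chil3 at 1124 and 742 CPM (0.60), both higher in the Plaur KO library, and Lcn2 counts again as the 1 lower of 4. The medians of the list were 0.15 in neutrophils, 0.18 in alveolar macrophages, where 0 of 3 passed, 0.29 in interstitial macrophages and 0.66 in classical monocytes.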

How the data were processed

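Lung leukocytes were profiled with 10x Genomics 3′ v3.1 chemistry, per the labels' protocols. The authors deposited UMI counts per gene and barcode of cells already called, not normalized, with Cell Ranger 7.1.0 and 7.0.0 and the mm10 build named, per the submitters' processing notes. Antibody tags were not used. The 9 genes, the gene lists and the rule for named genes were chosen with earlier results of these data known, and members just below 50 UMIs in a class are given by their counts.

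Barcodes under 200 genes or over 10% mitochondrial UMIs were dropped (61 barcodes of the Plaur KO library and 80 of the WT library), and Scrublet calls at an expected 8% were removed per library (457 and 260). Both libraries were clustered together in scanpy 1.11.5 on 3000 variable genes without the members and related protease genes, with 30 components, 15 neighbours and Leiden resolution 1. A marker counted when found in 20% of a cluster's cells at 2-fold over other cells. A name needed 3 markers and 50% of its set, a limit set after seeing the data. Of 199 marker symbols in 23 sets, 198 matched.

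UMIs were summed per class and library. Levels are CPM of that sum with exact Poisson intervals, ratios have exact conditional binomial intervals, and shares exact Clopper-Pearson intervals, all at 95%. The ratio interval was tested on simulated counts. PCR duplicates are removed by UMIs, but intervals cover counting error only and treat UMIs as independent of each other. Where a class held 0 UMIs in 1 library, 0.5 UMI entered the log2 ratio. Genes named from the lists are those past 1.5-fold with at least 50 UMIs, apart from a gene of the plasminogen list that is not reported here. Alternatives were stricter cell filters, doublet calls kept, resolution 0.5, members among the variable genes, TMM factors of edgeR 4.0.16, DESeq2 1.42.0 size factors, a total without mitochondrial, ribosomal and haemoglobin genes, cells thinned to 1000 UMIs, omission of the 5 highest cells, and clusters weighted alike. The count of cluster 25 among monocytes was added after seeing the data. RefSeq tables used GRCm38.p6.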

Additional observations from a re-analysis of the deposited data

Results flagged for a closer look

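Members past 1.5-fold in opposite directions in different classes were picked out, and none of these differences between classes was tested, because each genotype has 1 library.

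Mmp12 had a log2 ratio (Plaur KO over WT) of 1.15 in interstitial macrophages and of -0.71 in the cDC2 and CCR7 dendritic cells. Both kept their side of 1.5-fold in all alternatives run. In classical monocytes the ratio was -0.60, from 39 UMIs in the Plaur KO library and 14 in the WT library, and its sign changed with the settings.

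Mmp19 had a log2 ratio of 1.05 in classical monocytes and of -0.86 in the dendritic class. The dendritic value kept its side in all 10 alternatives. The monocyte value kept its side in 11 of 12, the exception being the count of cluster 25 among monocytes.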

How the results depend on the processing

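No paired analysis was possible because each genotype has 1 library and no test was run. Of 516 recomputed log2 ratios of members, 470 stayed within their counting interval, 42 moved out of it and 4 changed sign. Thinned cells gave 17 of the 42 and 2 of the 4. Their ratios were kept for all 48 pairs, also where thinning left few UMIs. The scaling alternatives shifted the median of all genes by at most 0.05 on the log2 scale. The changed signs were Adam8 in alveolar macrophages (-0.091 with thinned cells) and Mmp12 in classical monocytes (0.28 with at least 500 genes, 1.58 with thinned cells and 2.06 without the 5 highest cells per library). The cause was not tested.

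Counts of members past 1.5-fold changed as follows where they moved by more than 1.5 times. The shares of all genes given above are those of the main setting, at 1.5-fold and at least 50 UMIs. The counts under other settings have no such share beside them, so they describe the processing only. In neutrophils 0 were higher with thinned cells, with clusters weighted alike and at 2-fold. T cells had 2 higher when doublet calls stayed in and with a minimum of 20 UMIs. Alveolar macrophages had 1 higher at a minimum of 100 UMIs and at 2-fold, and 1 lower at 20 UMIs. Interstitial macrophages had 1 higher at 2-fold, and 1 lower with at least 500 genes and without the 5 highest cells. Classical monocytes had 1 higher with cluster 25 counted among them and 4 higher with thinned cells and without the 5 highest cells. Their lower count was 2 with cluster 25, and 0 with at least 500 genes, doublet calls kept, members among the variable genes, both scaling factors, the reduced total, the 5 highest cells left out, clusters weighted alike, at least 100 UMIs, and 2-fold. The dendritic class had 1 higher with thinned cells and at 20 UMIs, 4 lower with at least 500 genes and at resolution 0.5, and 0 lower at 2-fold. NK cells had 1 higher with thinned cells, and cDC1 had 1 higher and 1 lower both with thinned cells and at 20 UMIs. Smaller changes were to 2 higher (thinned cells) and 4 higher (members among the variable genes) in alveolar macrophages, 4 higher (thinned cells) and 2 higher (clusters weighted alike) in interstitial macrophages, 3 higher (clusters weighted alike) in classical monocytes and 3 lower in the dendritic class under 4 alternatives.

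With small classes such as fibroblasts left out, the class with the highest level was mostly the same. It was the same for 17 of 18 member and library pairs with thinned cells, 16 when doublet calls stayed in and 18 at resolution 0.5. With doublet calls kept, the exceptions were Mmp25 in both libraries, where the ILC2 class was highest. All 96 shares of cells with a UMI fell outside their unthinned interval once cells were thinned, since a share depends on depth. Members under 50 UMIs in a class were not compared, and 33 of 81 pairs of a member and a main class were in that range. Low counts there can come from depth or from low expression, which were not told apart.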
